A study of Mus musculus with 18 samples.

Results

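The Dlk1-Dio3 imprinted cluster of mouse chromosome 12 was described here through 6 of its genes, the paternally expressed Dlk1, Rtl1 and Dio3 and the maternally expressed Meg3, Rian and Mirg. The 6 were picked by gene symbol from the 34244 named genes of 1 expression table, and they were chosen by their levels in the same embryos that are described below. Their levels are therefore given as a description, with intervals, and the counts of members that pass a threshold are printed beside those of all genes without being read as a test. RNA-seq libraries were made from 9 whole embryos of the FVB strain at E11.5, in mid-gestation, 1 library per embryo and 3 embryos per genotype. The genotypes were Dnmt3b+/+, Dnmt3b-/- and Dnmt3b CI/CI. Dnmt3b is a DNA methyltransferase that places new methyl groups, Dnmt3b-/- is a conventional null derived from a loxP-flanked allele, and CI is a knock-in made with CRISPR/Cas9 in FVB zygotes that swaps residues of the catalytic site so that the protein is catalytically inactive. Offspring of different CI founders were not kept apart by the study. Bisulfite libraries of the series were not analysed here, so no methylation of the cluster is given.

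Imprinted genes are transcribed mainly from the copy of 1 parent. In this cluster, the protein-coding genes are known to be read from the paternal copy and a string of long non-coding RNAs from the maternal copy, under a control region between Dlk1 and Meg3 that carries DNA methylation on the paternal copy. Dlk1 encodes a membrane protein related to the Notch ligands, made in the fetal liver, muscle, cartilage and pituitary. Rtl1 is a gene derived from a retrotransposon and is needed in placenta and muscle, and Dio3 is the deiodinase that inactivates thyroid hormone. Meg3, also called Gtl2, is a long non-coding RNA, Rian carries many small nucleolar RNAs and Mirg many miRNAs.

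On GRCm38 the cluster covered 828.3 kb from the start of Dlk1 to the end of Dio3. Dlk1 lay at chr12:109452823-109463336 on the plus strand, followed after 77.7 kb by Meg3 at chr12:109541001-109571726. Rtl1, at chr12:109589193-109600330, was the only member on the minus strand. It lay 17.5 kb beyond Meg3 and ended 3.6 kb before Rian at chr12:109603940-109661716. Mirg lay at chr12:109729764-109749460, and Dio3, with a single exonic block of 2030 bases, stood 529.6 kb further on at chr12:110279068-110281097. The exons of Meg3 added up to 18089 bases and those of Rian to 18234 bases, against 5657 for Dlk1, 6358 for Rtl1 and 7292 for Mirg.

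The 250 bases before the RefSeq starts of Dlk1 and Meg3 are shown because these genes lie on either side of the control region and are the most abundant members of each parental group. The sequences are from RefSeq on GRCm38.p6, plus strand, 5′ to 3′. Capitals mark CpG dinucleotides, the sites at which the methyltransferases act.
Dlk1, chr12:109452573-109452822: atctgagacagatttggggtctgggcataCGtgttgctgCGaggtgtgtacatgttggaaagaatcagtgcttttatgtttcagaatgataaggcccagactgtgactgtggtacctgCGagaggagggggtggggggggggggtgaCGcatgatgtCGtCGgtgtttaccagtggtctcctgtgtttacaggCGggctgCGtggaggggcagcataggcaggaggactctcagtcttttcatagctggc
Meg3, chr12:109540746-109540995: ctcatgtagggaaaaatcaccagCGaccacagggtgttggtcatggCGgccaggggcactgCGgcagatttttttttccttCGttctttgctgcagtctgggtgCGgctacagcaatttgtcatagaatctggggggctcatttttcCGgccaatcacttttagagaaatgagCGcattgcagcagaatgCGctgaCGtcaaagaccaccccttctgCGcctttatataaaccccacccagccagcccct

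The Dlk1 window held 8 CpGs and the Meg3 window 10, where 43% and 37.8% of 32851 mouse promoter windows of this length held as many or more. The corresponding window of Dio3 held 21 CpGs and that of Rian 0, and 16.3% of windows reached 21. RefSeq starts Dio3 162 bases inside the first exon of GENCODE, so its window reaches into that exon and is not printed. The palindrome TGACGTCA, the binding site of the CREB family, occurred once in the Meg3 window and in 1.55% of all windows. TATAAA, searched on both strands, occurred in the Meg3 and Dio3 windows and in 12.4% of all windows. In the Meg3 window it matched on both strands, at overlapping positions. Neither motif was found in the Dlk1 or Rian windows, which says only that these letters are not there. The table of promoters used here gives 5 of the 6 members.

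Opposite Rtl1, on the plus strand, lie 6 miRNA hairpins of the 58 that RefSeq places between the start of Dlk1 and the end of Dio3. They are known to be maternally expressed and to pair perfectly with the Rtl1 transcript. All 11 of their mature miRNAs fell inside an exon of Rtl1, and their 11 seeds were all different and shared with no other miRNA of the cluster. A mature form of each hairpin is shown, from RefSeq on GRCm38.p6, because reads of the RNA that carries them cover the same bases as reads of Rtl1. Capitals mark the seed, bases 2 to 8 from the 5′ end.
mmu-miR-431-5p, chr12:109590459-109590479: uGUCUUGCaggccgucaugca
mmu-miR-433-3p, chr12:109591781-109591802: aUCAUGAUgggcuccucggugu
mmu-miR-127-3p, chr12:109592888-109592909: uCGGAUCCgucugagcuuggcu
mmu-miR-434-3p, chr12:109594565-109594586: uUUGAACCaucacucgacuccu
mmu-miR-432, chr12:109595006-109595028: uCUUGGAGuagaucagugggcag
mmu-miR-136-5p, chr12:109595331-109595352: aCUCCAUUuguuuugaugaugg
The levels of these miRNAs were not analysed here. Whether the authors counted reads by strand is not given in the sources used here, so a value of Rtl1 can include reads of the RNA on the other strand.

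The values are FPKM, which are scaled to the length of the exons and to the depth of the library. An order of genes by FPKM depends on the exon lengths used. Library depth ran from about 38451387 to 49808954 reads. No drop of the targeted gene was seen in the libraries labelled Dnmt3b-/-, where Dnmt3b measured 2.45, 3.12 and 3.33 FPKM, against Dnmt3b+/+ (2.25, 1.62 and 2.04 FPKM) or Dnmt3b CI/CI (2.06, 1.98 and 2.32 FPKM). It was higher, with log2 fold changes of 0.57 (standard error 0.15, limma adjusted p = 0.0248) and 0.46 (0.15, limma adjusted p = 0.0488). The first did not keep an adjusted p under 0.05 without Dnmt3b+/+ embryo 2 or 3 or labelled null embryo 2 or 3. Nor did the second without Dnmt3b+/+ embryo 3, labelled null embryo 2 or 3 or any Dnmt3b CI/CI embryo. Exons missing from an allele need not lower the sum over all exons, and these embryos are called the labelled nulls from here on. Dnmt3b+/+ embryo 2 stood apart in its liver genes. The summed level of 10 hepatoblast markers was 2.34 FPKM there and 61.2 to 289 FPKM in the other 8 embryos, and counts and calls that changed without this embryo are given both ways below. Separate embryos were used for each library, and the p-values below measure the spread between embryos of 1 genotype.

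In Dnmt3b+/+ embryos the cluster was led by Dlk1 with 64.7 ± 9.15 FPKM (SD, n = 3) and Meg3 with 49.2 ± 6.25 FPKM, at ranks 254 and 345 from the top among the 19397 genes tested. Rian followed with 16.3 ± 0.871 FPKM and Mirg with 3.42 ± 0.222 FPKM. Rtl1, with 2.14 ± 0.298 FPKM, lay near the middle of the tested genes, 47.4% of which were lower. Dio3 was lowest, with 1.04 ± 0.263 FPKM. In this order, no 2 neighbours overlapped among the 3 embryos. The smallest step was from Dlk1 to Meg3, 1.31 times between the means, and the largest from Rian to Mirg, 4.76 times. Dio3 rested on 68 to 114 reads per Dnmt3b+/+ library, against 14866 to 16907 for Dlk1, so its values carry the largest counting error of the 6.

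All 3 paternally expressed genes had lower levels in the labelled nulls than in any Dnmt3b+/+ embryo, as did Rian and Mirg, and 23.8% of all genes tested were separated in this way. All 6 were lower than in any Dnmt3b CI/CI embryo, with 29.5% of all genes, and Meg3, Rian and Mirg were higher in Dnmt3b CI/CI than in any Dnmt3b+/+ embryo, with 7.53%. Nothing is read from these counts, since the members were chosen on these levels. Their means were 42.7% (Dlk1), 48.3% (Rtl1) and 47.2% (Dio3) of those in Dnmt3b+/+. The maternally expressed genes differed less, with means of 74.5% (Meg3), 89.6% (Rian) and 77.7% (Mirg). In Dnmt3b CI/CI embryos the paternally expressed genes had 94.1% to 104% of the Dnmt3b+/+ means and the maternally expressed ones 121% to 123%. In whole embryos, fewer cells of a type and less RNA per cell cannot be told apart.

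**Figure D1:**
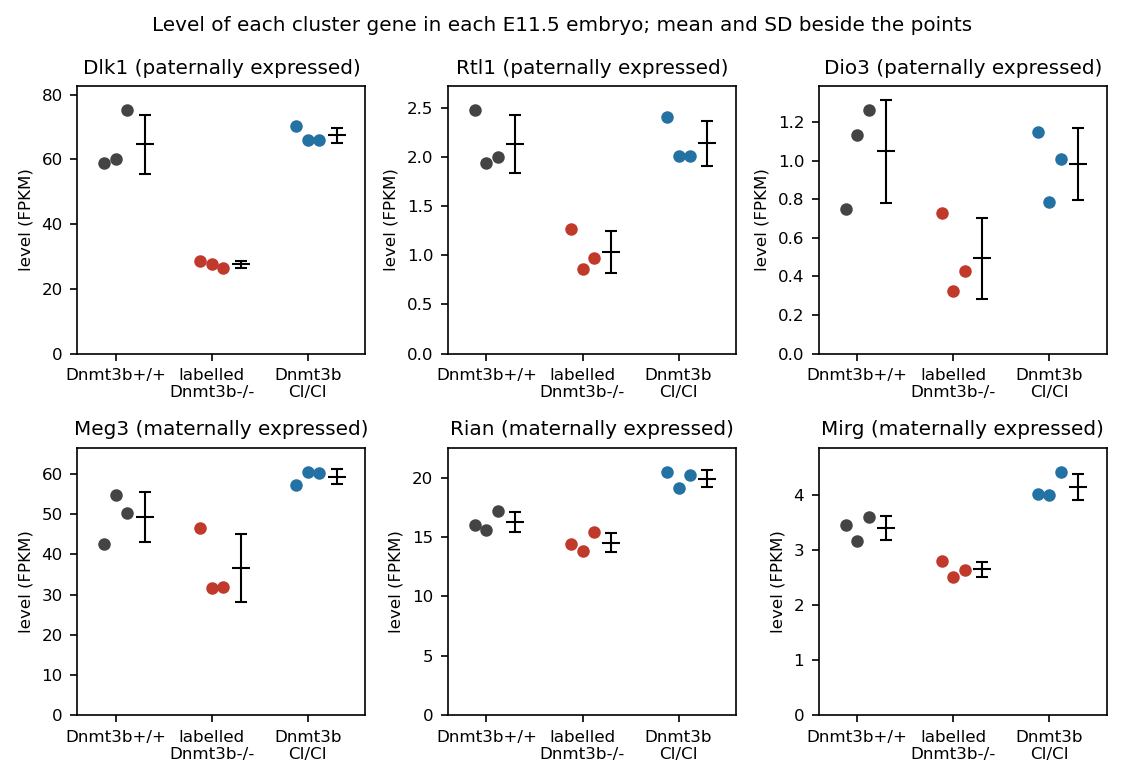
Level of each of the 6 genes in FPKM in each embryo, 1 point per embryo in the order of the embryo numbers, with the mean and SD of the 3 embryos beside them and each axis starting at 0. The labelled nulls lie below all others for Dlk1, Rtl1 and Dio3, while for Meg3 the first of them (46.5 FPKM) lies above the first Dnmt3b+/+ embryo (42.5 FPKM).

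Dlk1 had 58.9, 60.0 and 75.2 FPKM in Dnmt3b+/+, 28.7, 27.7 and 26.5 FPKM in the labelled nulls and 70.2, 66.1 and 66.0 FPKM in Dnmt3b CI/CI. The labelled null embryos lay close together, from 26.5 to 28.7 FPKM, and below the other 6, which overlapped. The log2 fold change, taken on log2(FPKM + 0.1), was −1.22 (standard error 0.09, 95% interval −1.43 to −1.0) for the labelled nulls against Dnmt3b+/+ and −1.29 (0.09, −1.50 to −1.07) against Dnmt3b CI/CI. Without Dnmt3b+/+ embryo 2 the first value was −1.27. Between Dnmt3b CI/CI and Dnmt3b+/+ the difference was 0.07 (0.09, −0.14 to 0.28).

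Rtl1 had 2.48, 1.94 and 2.00 FPKM in Dnmt3b+/+, 1.27, 0.862 and 0.970 FPKM in the labelled nulls and 2.41, 2.01 and 2.01 FPKM in Dnmt3b CI/CI. The lowest of the 6 other embryos still exceeded the highest labelled null. Its log2 fold change was −0.99 (standard error 0.15, 95% interval −1.34 to −0.64) against Dnmt3b+/+ and −1.0 (0.15, −1.35 to −0.65) against Dnmt3b CI/CI. Without Dnmt3b+/+ embryo 2 the first of these was −1.05. Dnmt3b CI/CI and Dnmt3b+/+ differed by 0.01 (0.15, −0.34 to 0.36).

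Dio3 had 0.750, 1.13 and 1.26 FPKM in Dnmt3b+/+, 0.729, 0.324 and 0.425 FPKM in the labelled nulls and 1.15, 0.785 and 1.01 FPKM in Dnmt3b CI/CI. The groups were only just apart, since embryo 1 of the labelled nulls, at 0.729 FPKM, lay next to Dnmt3b+/+ embryo 1 at 0.750 FPKM. These values came from 28 to 59 reads in the labelled null libraries and 69 to 105 in Dnmt3b CI/CI. The log2 fold change was −0.98 (standard error 0.27, 95% interval −1.6 to −0.36) against Dnmt3b+/+ and −0.91 (0.27, −1.53 to −0.29) against Dnmt3b CI/CI. It was −0.91 against Dnmt3b+/+ without Dnmt3b+/+ embryo 2, and between Dnmt3b CI/CI and Dnmt3b+/+ it was −0.07 (0.27, −0.69 to 0.55).

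Meg3 had 42.5, 54.8 and 50.4 FPKM in Dnmt3b+/+, 46.5, 31.7 and 31.9 FPKM in the labelled nulls and 57.2, 60.6 and 60.3 FPKM in Dnmt3b CI/CI. Labelled null embryo 1 lay inside the Dnmt3b+/+ range and embryos 2 and 3 below it, while every Dnmt3b CI/CI embryo lay above it. The log2 fold change of the labelled nulls against Dnmt3b+/+ was −0.44 (standard error 0.15, 95% interval −0.79 to −0.09), from −0.62 without labelled null embryo 1 to −0.35 without embryo 2 or embryo 3. Against Dnmt3b CI/CI it was −0.72 (0.15, −1.06 to −0.37). Dnmt3b CI/CI against Dnmt3b+/+ gave 0.28 (0.15, −0.07 to 0.62).

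Rian had 16.0, 15.6 and 17.2 FPKM in Dnmt3b+/+, 14.4, 13.8 and 15.4 FPKM in the labelled nulls and 20.5, 19.1 and 20.2 FPKM in Dnmt3b CI/CI. The 3 genotypes did not overlap, with the labelled nulls lowest and Dnmt3b CI/CI highest, but the step down was small. It came to −0.16 (standard error 0.06, 95% interval −0.30 to −0.02) on the log2 scale, against a step up of 0.29 (0.06, 0.15 to 0.44) in Dnmt3b CI/CI. The labelled nulls were −0.45 (0.06, −0.59 to −0.31) from Dnmt3b CI/CI.

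Mirg followed the same order, with 3.47, 3.17 and 3.60 FPKM in Dnmt3b+/+, 2.80, 2.52 and 2.64 FPKM in the labelled nulls and 4.02, 4.01 and 4.43 FPKM in Dnmt3b CI/CI. Here too no genotype overlapped another. The log2 fold change was −0.35 (standard error 0.08, 95% interval −0.53 to −0.18) for the labelled nulls against Dnmt3b+/+, 0.27 (0.08, 0.10 to 0.45) for Dnmt3b CI/CI against Dnmt3b+/+ and −0.63 (0.08, −0.80 to −0.45) for the labelled nulls against Dnmt3b CI/CI. Leaving out Dnmt3b+/+ embryo 2 moved these 3 genes to −0.36 (Meg3), −0.19 (Rian) and −0.40 (Mirg) in the first of the comparisons.

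A gene was called at a Benjamini-Hochberg adjusted p under 0.05, from limma over all 19397 genes tested, together with a fold change of at least 2. For the labelled nulls against Dnmt3b+/+, 1 of the 6 members (Dlk1) was called lower, where 3.38% of all genes were, and 0 were called higher, where 1.07% were. Dropping the fold threshold, 4 of 6 had an adjusted p under 0.05 and lower values (all but Meg3 and Rian), where 16.4% of all genes did and 9.41% were higher. This count was 3 without Dnmt3b+/+ embryo 2, where Dio3 was lost and the shares of all genes were 11.9% and 5.98%, 2 without Dnmt3b+/+ embryo 3 or labelled null embryo 2 (Dlk1 and Rtl1 each time), and 3 to 5 without any other embryo. For the labelled nulls against Dnmt3b CI/CI, 1 of 6 (Dlk1) was called lower against 4.32% of all genes and 1.1% higher, and all 6 had an adjusted p under 0.05 and lower values, against 18.2% lower and 9.7% higher, or 5 of 6, all but Dio3, without Dnmt3b+/+ embryo 3, labelled null embryo 2 or 3 or any Dnmt3b CI/CI embryo. Since the members were chosen on these values, nothing is read from the counts. In Dnmt3b CI/CI against Dnmt3b+/+, limma called 0 of the 6, and Rian and Mirg had an unadjusted p under 0.05, both higher, where 2.7% of all genes were higher and 2.55% lower at that threshold. Of all genes, 0% were called lower and 0.129% higher in that comparison, or 0.0155% and 0.129% without the fold threshold. Rtl1 and Dio3 sat next to the 2-fold limit with −0.99 and −0.98. With a pseudocount of 0.01 FPKM in place of 0.1, both passed it and 3 of 6 were called. Against Dnmt3b+/+, Rtl1 passed it also without Dnmt3b+/+ embryo 2 or 3 or labelled null embryo 1, and Dio3 without Dnmt3b+/+ embryo 1 or labelled null embryo 1. Against Dnmt3b CI/CI, Rtl1 did so without labelled null embryo 1 or Dnmt3b CI/CI embryo 2 or 3, and Dio3 without labelled null embryo 1. The count called was thus 1 to 3 with an embryo left out.

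**Figure D2:**
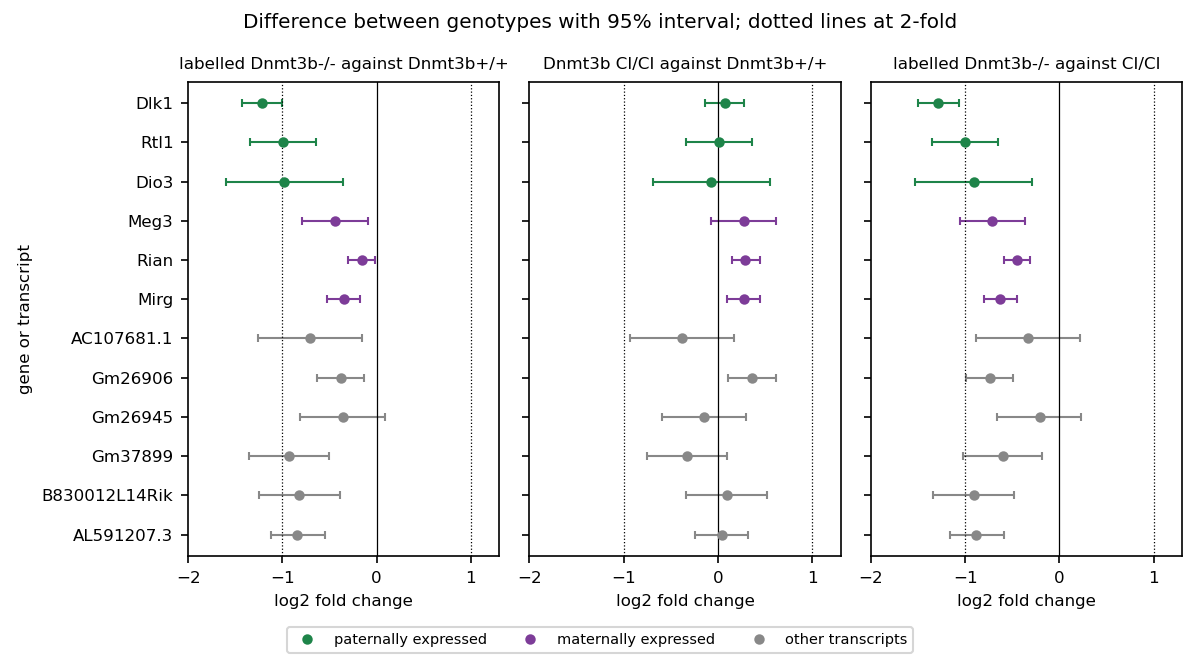
Log2 fold changes with 95% intervals (bars) of the 6 members and of the 6 other tested transcripts of the cluster, in the 3 comparisons, with dotted lines at 2-fold. The paternally expressed genes lie at −0.98 to −1.22 in the labelled nulls against Dnmt3b+/+ and around 0 in Dnmt3b CI/CI, and the maternally expressed genes lie at −0.16 to −0.44 and at 0.27 to 0.29.

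The levels of the parental groups were also set against each other within an embryo, where library depth cancels. Since the members were chosen on these levels, the ratios are a description only. Dlk1 had 1.39, 1.09 and 1.49 times the level of Meg3 in Dnmt3b+/+, 0.618, 0.874 and 0.830 times in the labelled nulls and 1.23, 1.09 and 1.1 times in Dnmt3b CI/CI. Only in the labelled nulls was Meg3 the higher of the pair in FPKM in each embryo. By reads, before scaling to exon length, Meg3 exceeded Dlk1 in every embryo of each genotype. The mean of the 3 paternally expressed genes minus that of the 3 maternally expressed ones, on log2(FPKM + 0.1), was −1.41, −1.41 and −1.31 in Dnmt3b+/+, −1.97, −2.22 and −2.17 in the labelled nulls and −1.49, −1.76 and −1.72 in Dnmt3b CI/CI. Dnmt3b CI/CI embryos lay between the other genotypes on this measure, without overlap with either, and nothing is read from this order. Their paternally expressed mean, 2.32 to 2.6, overlapped the 2.34 to 2.58 of Dnmt3b+/+, while their maternally expressed mean, 4.08 to 4.15, lay above the 3.75 to 3.89 of Dnmt3b+/+.

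Proportions within each parental group are given in the same way, with nothing read from a separation of genotypes. Rtl1 amounted to 3.36% ± 0.789 of Dlk1 (SD, n = 3) in Dnmt3b+/+, 3.73% ± 0.648 in the labelled nulls and 3.17% ± 0.225 in Dnmt3b CI/CI, with overlap of all 3 genotypes. Dio3 amounted to 1.61% ± 0.310, 1.77% ± 0.699 and 1.45% ± 0.235 of Dlk1, again overlapping, with 1.17% to 2.54% among the labelled nulls. Among the maternally expressed genes, Mirg had 0.210 ± 0.00656 times the level of Rian in Dnmt3b+/+, 0.182 ± 0.0115 times in the labelled nulls and 0.208 ± 0.0116 times in Dnmt3b CI/CI. The labelled nulls, at 0.171 to 0.194, lay below the 0.204 to 0.217 of Dnmt3b+/+ and the 0.196 to 0.219 of Dnmt3b CI/CI. Rian against Meg3 overlapped in all genotypes, at 0.284 to 0.376 times in Dnmt3b+/+, 0.311 to 0.484 times in the labelled nulls and 0.315 to 0.358 times in Dnmt3b CI/CI.

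Over the 9 embryos, Pearson's r of log2 levels between members ran from 0.642 (Dio3 and Rian) to 0.939 (Rian and Mirg), and it was 0.929 for Dlk1 and Rtl1. These points share 9 libraries and 3 genotypes. After the genotype means were taken off, r was 0.00444 for Dlk1 and Rtl1, 0.557 for Rian and Mirg and 0.807 for Dio3 and Meg3. Labelled null embryo 1 was the highest of its genotype for 5 of the members and second to embryo 3 for Rian.

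The table held 15 other transcripts between the start of Dlk1 and the end of Dio3. Of these, 6 passed the filter on low values, 8 had 3 or fewer reads in every embryo, 7 of them none at all, and the last (AC091458.5), with 1 to 12 reads, was not tested. Limma called 0 of the 6 tested at 2-fold in any comparison. Gm37899, B830012L14Rik and AC107681.1 were under 0.1 FPKM in every labelled null and passed the filter only through embryos of the other genotypes, so lower values in the labelled nulls were favoured before any test and no count over the 6 is read. Of the 3 above 0.1 FPKM in all embryos, Gm26906 and AL591207.3 were lower in the labelled nulls at an adjusted p under 0.05 against Dnmt3b+/+ and against Dnmt3b CI/CI, beside 16.4% and 18.2% of all genes. Against Dnmt3b+/+ Gm26906 did not keep this with several of the embryos left out, as given below. Gm26945, with 0.474 to 0.748 FPKM in the labelled nulls and 0.735 to 0.913 FPKM in Dnmt3b+/+, did not pass. In Dnmt3b CI/CI against Dnmt3b+/+, 0 passed the adjusted threshold and 1 (Gm26906) was higher at an unadjusted p under 0.05. AL591207.3, Gm37899, B830012L14Rik and Gm26906 are described next, a choice made after their values were seen.

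AL591207.3 (ENSMUSG00000113581) lies head to head with Dio3 and shares 2684 bases with the RefSeq gene Dio3os, the non-coding RNA beside Dio3. Its levels were 0.426, 0.406 and 0.364 FPKM in Dnmt3b+/+, 0.179, 0.154 and 0.205 FPKM in the labelled nulls and 0.450, 0.371 and 0.417 FPKM in Dnmt3b CI/CI. The labelled nulls lay below all other embryos, with a log2 fold change of −0.84 (standard error 0.12, limma adjusted p = 0.00317) against Dnmt3b+/+ and −0.88 (0.12, adjusted p = 0.00231) against Dnmt3b CI/CI. Dio3 beside it had lower values in the same embryos. AL591207.3 rested on 11 to 14 reads in the labelled null libraries and 24 to 34 in the others.

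Gm37899 and B830012L14Rik lie between Rian and Mirg and were low throughout. Gm37899 had 0.306, 0.182 and 0.187 FPKM in Dnmt3b+/+, 0.0777, 0.0648 and 0.0622 FPKM in the labelled nulls and 0.199, 0.159 and 0.113 FPKM in Dnmt3b CI/CI. The labelled nulls lay at 30.3% of the Dnmt3b+/+ mean. B830012L14Rik had 0.283, 0.152 and 0.164 FPKM, then 0.0724, 0.0522 and 0.0766 FPKM, then 0.173, 0.256 and 0.214 FPKM in the same order of genotypes. There the labelled nulls had 33.6% of the Dnmt3b+/+ mean. In both transcripts the labelled nulls lay below all other embryos. Gm37899 rested on 22 to 27 reads per labelled null library and 38 to 119 in the others, and B830012L14Rik on 10 to 14 and 29 to 57. Being under 0.1 FPKM in the labelled nulls, neither would have been tested without the levels of the other genotypes, and their values are given without a test.

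Gm26906 lies on the minus strand across 3096 bases at the 3′ end of Meg3. It had 33.7, 37.6 and 39.0 FPKM in Dnmt3b+/+, 33.4, 27.5 and 24.4 FPKM in the labelled nulls and 44.4, 48.2 and 48.8 FPKM in Dnmt3b CI/CI. Its level was 68.6% to 86.8% of that of Meg3 in every embryo, and reads of the pair cannot be told apart if strand was not used in counting. The fall against Dnmt3b+/+ was 0.38 on the log2 scale (standard error 0.11, limma adjusted p = 0.0381) and against Dnmt3b CI/CI 0.74 (adjusted p = 0.0029). Against Dnmt3b+/+ it no longer passed without Dnmt3b+/+ embryo 2 (−0.36, adjusted p = 0.0922) nor without Dnmt3b+/+ embryo 3, labelled null embryo 2 or 3 or any Dnmt3b CI/CI embryo, and its adjusted p was at most 0.115. Dnmt3b CI/CI against Dnmt3b+/+ gave 0.36 (0.11, limma adjusted p = 0.785).

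Beyond the cluster, 18 genes flanking it on either side were followed. In the labelled nulls against Dnmt3b+/+, 1 of 18 (Begain) was called lower, beside 3.38% of all genes, and 0 higher, and their median log2 fold change was −0.06 where all genes had −0.07. Without the fold threshold 2 fell (Begain and Traf3) and 2 rose (Wars and Hsp90aa1), where 16.4% and 9.41% of all genes did. Traf3 and Hsp90aa1 passed with each embryo left out, and without Dnmt3b+/+ embryo 2 or 3 or labelled null embryo 2 or 3 or Dnmt3b CI/CI embryo 1 or 3 they were the only 2. Without labelled null embryo 1, 4 fell, with Slc25a29 and Tecpr2. Begain, which encodes a protein of the postsynaptic density and is the nearest of these genes on the Dlk1 side, had 3.91, 6.80 and 5.48 FPKM in Dnmt3b+/+, 4.18, 2.19 and 1.59 FPKM in the labelled nulls and 4.92, 5.59 and 5.47 FPKM in Dnmt3b CI/CI. Labelled null embryo 1 overlapped the Dnmt3b+/+ embryos. Its log2 fold change was −1.08 (standard error 0.32, limma adjusted p = 0.0383) against Dnmt3b+/+ and −1.09 (0.32, adjusted p = 0.0345) against Dnmt3b CI/CI. Over the alternatives and left-out embryos, the first value ran from −1.45 to −0.78 with an adjusted p of 0.00275 to 0.116 and the second from −1.46 to −0.79 with 0.0023 to 0.103. The call was lost (0 of 18) against both genotypes without Dnmt3b+/+ embryo 3, labelled null embryo 2 or 3 or any Dnmt3b CI/CI embryo, and against Dnmt3b+/+ also without Dnmt3b+/+ embryo 2, where the fold change was −0.89. In Dnmt3b CI/CI against Dnmt3b+/+, limma called 0 of the 18, and 0 at an unadjusted p under 0.05.

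**Figure D3:**
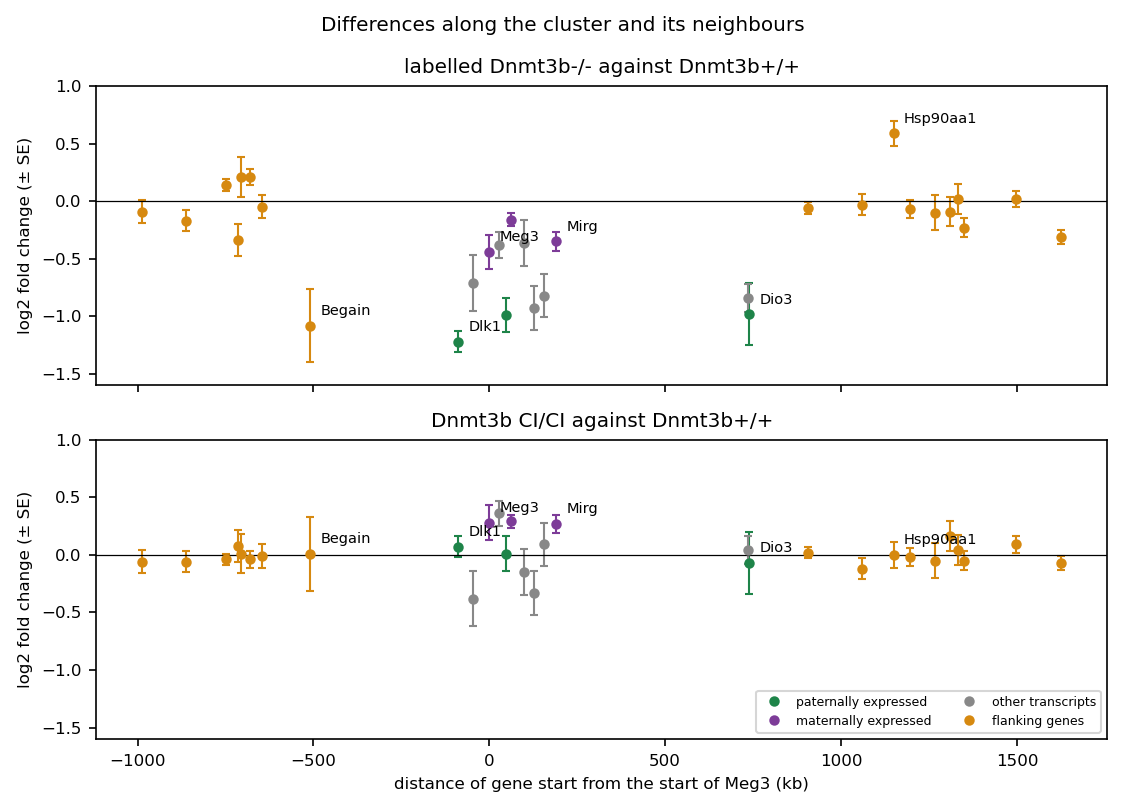
Log2 fold change with its standard error (bars) of each tested gene against the distance of its start from that of Meg3 in kb, for the labelled nulls (top) and Dnmt3b CI/CI (bottom) against Dnmt3b+/+. In the top panel the 6 members, chosen on these levels, lie at −0.16 to −1.22 and Begain at −1.08, and 3 of the 6 other transcripts passed the filter only through the other genotypes, so nothing is read from the shared sign. In the bottom panel the maternally expressed genes and Gm26906 lie at 0.27 to 0.36 and Begain at 0.01.

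Thyroid hormone genes were followed beside Dio3. Of 8 tested, 2 were called lower and 1 higher in the labelled nulls against Dnmt3b+/+, and the same counts held against Dnmt3b CI/CI, beside 3.38% lower and 1.07% higher, and 4.32% and 1.1%, of all genes. Thra, the thyroid hormone receptor alpha, had 27.4 FPKM on average in Dnmt3b+/+, 13.5 in the labelled nulls and 27.9 in Dnmt3b CI/CI, a log2 fold change of −1.06 (standard error 0.25, limma adjusted p = 0.0166) against Dnmt3b+/+. Ttr, the carrier of thyroxine that the yolk sac and liver make, had 22.5, 35.5 and 14.7 FPKM in Dnmt3b+/+ and 5.0, 8.12 and 2.89 FPKM in the labelled nulls, and its fold change was −2.19 (0.47, limma adjusted p = 0.0121). Crym, which binds thyroid hormone in the cell, rose by 1.06 (0.29, limma adjusted p = 0.0295), led by labelled null embryos 2 and 3 with 5.39 and 6.54 FPKM against 1.78 to 2.38 FPKM in Dnmt3b+/+. Ttr stayed called against Dnmt3b+/+ under each alternative, but against Dnmt3b CI/CI in 9 of 18, with an adjusted p of up to 0.147. That call was lost without a filter, with only the 2 groups compared, with no variance trend, and without Dnmt3b+/+ embryo 1 or 3, labelled null embryo 1 or 3 or Dnmt3b CI/CI embryo 2 or 3. Thra was not called without Dnmt3b+/+ embryo 2 (log2 −0.90) or labelled null embryo 2 or 3, nor Crym without Dnmt3b+/+ embryo 2 (0.93) or 3 or labelled null embryo 2 or 3. Against Dnmt3b CI/CI, 0 to 2 of the 8 were called lower and 0 or 1 higher with an embryo left out, with 0 of either without labelled null embryo 3.

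Of 17 genes of the Notch pathway, of which Dlk1 is a non-canonical relative, 1 was called lower and 0 higher in the labelled nulls against either other genotype, with the same shares of all genes. This was Dlk2, the closest paralog of Dlk1, with 1.26, 2.53 and 1.5 FPKM in Dnmt3b+/+, 1.12, 0.568 and 0.502 FPKM in the labelled nulls and 1.51, 1.67 and 2.20 FPKM in Dnmt3b CI/CI. Against Dnmt3b+/+ its change came to −1.18 on the log2 scale (standard error 0.32, limma adjusted p = 0.0282). Of 18 alternatives 9 kept this call. It was lost with a pseudocount of 1 FPKM, without a filter on low values, with quantile normalization, with only the 2 groups compared and with the replicate block, and the adjusted p reached 0.0951. It was not called without Dnmt3b+/+ embryo 2 (−0.90, adjusted p = 0.0742) or 3 or labelled null embryo 2 or 3, nor against Dnmt3b CI/CI without either of these nulls or Dnmt3b CI/CI embryo 2 or 3. The median of the 17 was 0.01. Without the fold threshold 2 rose and 3 fell against Dnmt3b+/+, beside 9.41% and 16.4% of all genes. Against Dnmt3b CI/CI 5 rose and 3 fell, beside 9.7% and 18.2%. Without Dnmt3b+/+ embryo 2 these counts were 3 and 2, beside 5.98% and 11.9%, and 6 and 3, beside 10.7% and 21%. The first median was then 0.16.

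Among 20 imprinted genes elsewhere in the genome, limma called 0 in each comparison, and 1 (Phlda2, log2 fold change −1.08, adjusted p = 0.0142) against Dnmt3b CI/CI without labelled null embryo 3. Without the fold threshold 1 rose and 4 fell in the labelled nulls against Dnmt3b+/+, with a median of −0.12, beside 9.41% and 16.4% of all genes, and 7 fell and 1 rose against Dnmt3b CI/CI, beside 18.2% and 9.7%. In the first comparison the counts were 0 and 2 without Dnmt3b+/+ embryo 2 or labelled null embryo 2, 1 and 0 without Dnmt3b+/+ embryo 3, 0 and 1 without labelled null embryo 3, 0 and 3 without Dnmt3b+/+ embryo 1, 2 and 5 without labelled null embryo 1 and 1 and 2 without Dnmt3b CI/CI embryo 2. In the second, 3 or 4 fell without Dnmt3b+/+ embryo 3, labelled null embryo 2 or 3 or any Dnmt3b CI/CI embryo, while 4 rose without labelled null embryo 1 and 0 without labelled null embryo 2 or 3 or any Dnmt3b CI/CI embryo. At an unadjusted p under 0.05, 2 were higher and 7 lower in the first comparison, 1 and 8 in the second and 2 and 2 in Dnmt3b CI/CI against Dnmt3b+/+, where 14.6% and 25.4%, 15% and 26.9%, and 2.7% and 2.55% of all genes were. H19, the most abundant of them, had 998 FPKM on average in Dnmt3b+/+, 902 in the labelled nulls and 1310 in Dnmt3b CI/CI, and its log2 fold change of −0.15 (standard error 0.16, limma adjusted p = 0.524) in the first of these comparisons did not pass. Against Dnmt3b CI/CI it was −0.54 (0.16, limma adjusted p = 0.0376). H19 no longer passed there without Dnmt3b+/+ embryo 1 or 3, labelled null embryo 2 or 3 or any Dnmt3b CI/CI embryo. A list of imprint control genes had 15 tested, with Tet1, Tet2, Tet3 and the mutated gene Dnmt3b itself among them. Limma called 0 of these at 2-fold. At an unadjusted p under 0.05, 6 were higher and 7 lower in the labelled nulls against Dnmt3b+/+, beside 14.6% and 25.4% of all genes. Without the fold threshold 5 rose, Dnmt3b itself among them, and 6 fell, beside 9.41% and 16.4% of all genes. Trim28, the corepressor that zinc finger proteins bring to imprints, was another that rose, from 88.6 to 118 FPKM (log2 fold change 0.41, standard error 0.07, limma adjusted p = 0.00422). The counts of 5 and 6 became 3 and 3 without Dnmt3b+/+ embryo 2 or labelled null embryo 3, 3 and 2 without Dnmt3b+/+ embryo 3 or labelled null embryo 2, 6 and 2 without Dnmt3b+/+ embryo 1, and 5 and 3 without Dnmt3b CI/CI embryo 1. Trim28, Dnmt1 and Uhrf1 rose and Tet2 and Tet3 fell with each embryo left out. In Dnmt3b CI/CI against Dnmt3b+/+, 0 of the thyroid hormone, Notch, imprinted and imprint control genes passed limma's adjusted threshold. At an unadjusted p under 0.05, 2 Notch genes were lower (2.55% of all genes), with 0 thyroid hormone or imprint control genes in either direction.

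Among the tissues in which Dlk1 is made, the markers of muscle and cartilage were lower in the same embryos, and those of liver and pituitary are given after them. Of 10 skeletal muscle markers, 7 were called lower in the labelled nulls against Dnmt3b+/+ and 8 against Dnmt3b CI/CI, beside 3.38% and 4.32% of all genes, and all 10 had a log2 fold change below 0, with a median of −1.21. Their summed level was 87.8 to 112 FPKM in the labelled nulls, 129 to 236 FPKM in Dnmt3b+/+ and 225 to 270 FPKM in Dnmt3b CI/CI. Actc1 was the largest part of these sums, with means of 62.3, 96.1 and 121 FPKM. It was not called and overlapped between the labelled nulls and Dnmt3b+/+ (−0.57, standard error 0.34, limma adjusted p = 0.25). Mymk, which drives the fusion of myoblasts, fell by 1.99 (standard error 0.34, limma adjusted p = 0.00563), Chrna1 of the acetylcholine receptor by 1.79 (0.28, limma adjusted p = 0.00366), embryonic myosin Myh3 by 1.74 (0.39, limma adjusted p = 0.0142) and the muscle regulator Myod1 by 1.38 (0.36, limma adjusted p = 0.0259) against Dnmt3b+/+. Against Dnmt3b+/+ the count of 7 was 4 with only the 2 groups compared or with the replicate block, 4 without Dnmt3b+/+ embryo 2, 3 without Dnmt3b+/+ embryo 3, 2 without labelled null embryo 2 and 3 without labelled null embryo 3. Myod1 was not called in any of these, nor Myh3 without Dnmt3b+/+ embryo 3 or labelled null embryo 2 or 3, while Mymk kept its call with each embryo left out. Against Dnmt3b CI/CI 7 or 8 were called.

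Of 7 cartilage markers, 4 were called lower against Dnmt3b+/+ and 6 against Dnmt3b CI/CI, beside the same 3.38% and 4.32%, with a median of −1.08 in the first. Matn4, a matrix protein of cartilage, had 10, 12.5 and 14.1 FPKM in Dnmt3b+/+ and 1.16, 0.396 and 0.319 FPKM in the labelled nulls, and fell by 4.25 (standard error 0.36, limma adjusted p = 2.9e-04). Matn1 fell by 3.92 (0.28, limma adjusted p = 1.1e-04), aggrecan (Acan) by 3.31 (0.43, limma adjusted p = 0.00203) and Col11a1 by 1.08 (0.18, limma adjusted p = 0.00507). The first 3 kept their calls with each embryo left out, and Col11a1 was lost without Dnmt3b+/+ embryo 3 or labelled null embryo 2 or 3. Against Dnmt3b CI/CI, 4 were called without labelled null embryo 3. Summed, the 7 markers had 83.4 to 133 FPKM in the labelled nulls, 148 to 222 FPKM in Dnmt3b+/+ and 213 to 225 FPKM in Dnmt3b CI/CI. No muscle or cartilage marker was at 3 or fewer reads in all embryos. The part of these tissues in the levels of the cluster was not tested.

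Of 10 hepatoblast markers, limma called 0 in each comparison, with 0 also at an unadjusted p under 0.05. Without Dnmt3b+/+ embryo 2, however, 6 of 10 were called lower in the labelled nulls against each other genotype, where 3.05% (against Dnmt3b+/+) and 4.91% of all genes then were, with medians of −1.20 and −1.12. With all embryos, 8 of 10 lay above 0 on the log2 scale against Dnmt3b+/+ (median 0.37) and 0 against Dnmt3b CI/CI. With only the 2 groups compared, 6 were also called lower against Dnmt3b CI/CI. Apoa1, Apoa2, Alb, Serpina1a and Ahsg were called against both genotypes without that embryo, joined by Trf against Dnmt3b+/+ and by Fga against Dnmt3b CI/CI. The sums of the 10 markers were 289, 2.34 and 158 FPKM in Dnmt3b+/+, 61.2, 122 and 63.1 FPKM in the labelled nulls and 215, 171 and 211 FPKM in Dnmt3b CI/CI, and Afp, the fetal serum protein, had 93.3, 0.119 and 52.0 FPKM in the first of these. In the same embryos Dlk1 had 58.9, 60.0 and 75.2 FPKM, and the part of liver in its level was not tested. Of 5 tested pituitary markers, 1 (Pomc, the precursor of corticotropin) was called higher and 0 lower in the labelled nulls against Dnmt3b+/+, beside 1.07% and 3.38% of all genes. Pomc went from 0.725 to 1.59 FPKM (log2 fold change 1.04, standard error 0.10, limma adjusted p = 6.4e-04). The call at 2-fold was lost without Dnmt3b+/+ embryo 2 (0.97) or labelled null embryo 3. Against Dnmt3b CI/CI it gave 0.97 (0.10, limma adjusted p = 7.7e-04) and was not called at 2-fold. Cga had 3 or fewer reads in every embryo. The 8 pituitary markers summed to 21.6 to 30.3 FPKM in the labelled nulls and 15.8 to 28.1 FPKM in Dnmt3b+/+.

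Markers of other cells were spread as follows. Of 8 neuron markers limma called 0, with 0 higher and 2 lower at an unadjusted p under 0.05 against Dnmt3b+/+ and 4 lower against Dnmt3b CI/CI, beside 25.4% and 26.9% of all genes. All 8 lay below 0 in both comparisons, with medians of −0.57 and −0.53 where all genes had −0.07 and −0.08. Without Dnmt3b+/+ embryo 2, which had the highest neuron sum, the first median was −0.33, and 3 of the 8 were lower at an adjusted p under 0.05 against Dnmt3b CI/CI, where 0 had been. Without labelled null embryo 1, 1 and 3 of the 8 were called lower in these comparisons. The neuron markers summed to 179 to 329 FPKM in the labelled nulls and 224 to 429 FPKM in Dnmt3b+/+, with labelled null embryo 1 at 329 FPKM and Tubb3, a neuronal tubulin, at 221, 123 and 117 FPKM in the 3 labelled nulls. Of 7 endothelial markers limma called 0. At an unadjusted p under 0.05, 1 was higher against Dnmt3b+/+ and 4 lower against Dnmt3b CI/CI, beside 14.6% and 26.9% of all genes. At an adjusted p under 0.05, 2 (Pecam1 and Cdh5) were lower against Dnmt3b CI/CI, beside 18.2% of all genes. The 7 summed to 38.9 to 49.1 FPKM in the labelled nulls, 42.4 to 52.1 FPKM in Dnmt3b+/+ and 54.4 to 55.3 FPKM in Dnmt3b CI/CI. Cldn5, the most abundant, differed by −0.32 on the log2 scale against Dnmt3b+/+ (standard error 0.22, limma adjusted p = 0.309). Of 6 primitive erythroid markers, which summed to 2211 to 6937 FPKM in the labelled nulls and 2239 to 2853 FPKM in Dnmt3b+/+, 2 rose against both other genotypes, beside 1.07% and 1.1% of all genes, with Hbb-bh1, an embryonic globin, at 113, 501 and 265 FPKM in the labelled nulls and 26.9, 46.1 and 23.3 FPKM in Dnmt3b+/+ (log2 fold change 3.01, standard error 0.48, limma adjusted p = 0.00418), and Hba-x up by 1.79 (0.42, limma adjusted p = 0.018), the latter not called without Dnmt3b+/+ embryo 3 or labelled null embryo 3. Without labelled null embryo 1 the count was 3. Of 5 tested extraembryonic markers, Rhox6 had 0.298, 0.606 and 0.44 FPKM in the labelled nulls and 0.0887, 0.0179 and 0.0227 FPKM in Dnmt3b+/+, the latter from 0 to 4 reads. Rhox6 passed the filter only through the labelled nulls and Dnmt3b CI/CI embryo 3 (0.129 FPKM). Higher values in the labelled nulls were thus favoured before any test, and its call as higher is not read. Its fitted log2 value of 1.93 ran from 0.47 to 3.30 over the alternatives. Of the other 4, Ttr fell against both genotypes, and Tfap2c rose against Dnmt3b CI/CI (log2 fold change 1.39, standard error 0.43, limma adjusted p = 0.0422), a call kept in 7 of 18 alternatives. Of the 5, 3 lay above 0 against Dnmt3b+/+, with a median of 0.34, but Rhox6 is 1 of these and nothing is read from the count. Without Ttr, already counted among the thyroid hormone genes, the extraembryonic list summed to 3.21 to 5.95 FPKM in the labelled nulls, 3.06 to 3.6 FPKM in Dnmt3b+/+ and 1.26 to 2.93 FPKM in Dnmt3b CI/CI. The placental markers Tpbpa, Prl3d1, Prl2c2 and Gcm1 and the yolk sac gene Apoa4 had 3 or fewer reads in every embryo. The part of these cells in the levels of the cluster was not tested either.

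**Figure D4:**
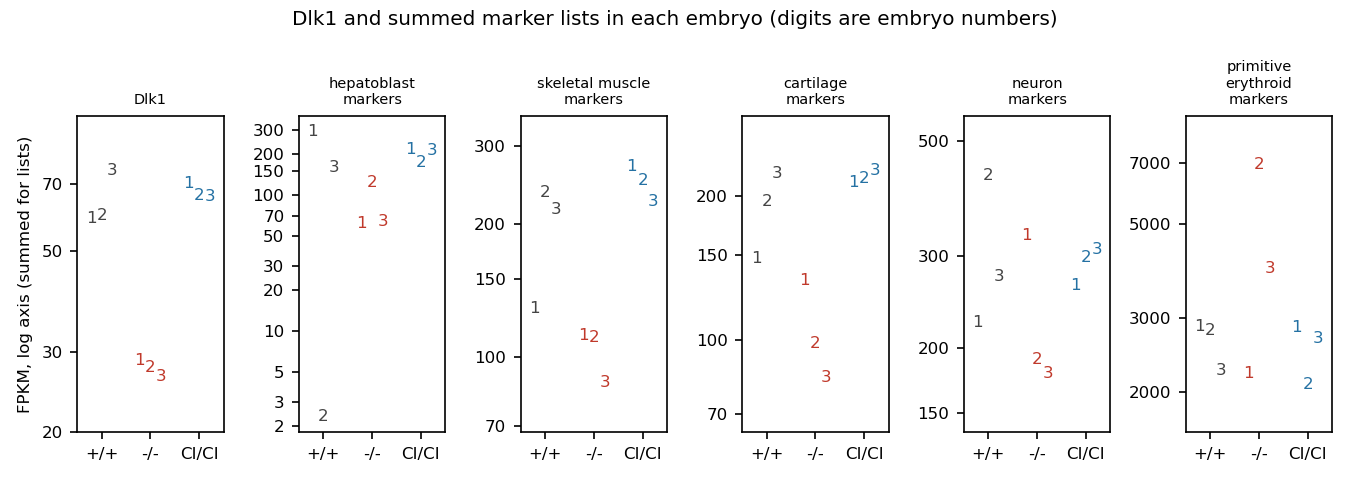
Level of Dlk1 and summed levels of 5 marker lists in FPKM on log axes, with each digit standing for 1 embryo of Dnmt3b+/+, labelled Dnmt3b-/- and Dnmt3b CI/CI. Muscle and cartilage markers are lowest in the labelled nulls, like Dlk1. Hepatoblast markers are lowest in Dnmt3b+/+ embryo 2 (2.34 FPKM). Apart from that embryo they too are lowest in the labelled nulls (61.2 to 122 FPKM, against 158 to 289 FPKM).

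The genes with the most similar pattern to Dlk1 and to Meg3 lay outside the cluster. Among 12796 tested genes with a mean of at least 1 FPKM, those with the highest Pearson's r of log2(FPKM + 0.1) to Dlk1 over the 9 embryos were Tns2 (0.997), Slpi (0.995), Adamts17, Sertad4 and Flrt2 (0.993 each). Slpi, a secreted protease inhibitor, had 1.59 FPKM in Dnmt3b+/+, 0.207 in the labelled nulls and 1.69 in Dnmt3b CI/CI, and Tns2, a tensin of cell adhesions, 8.80, 3.84 and 9.59 FPKM. For Meg3 they were Prrxl1 (0.988), Akap12 (0.984), Pde2a (0.983), Casz1 (0.982) and Wbscr17 (0.981). Akap12, a kinase anchor, had 17.4, 12.9 and 20.7 FPKM and Prrxl1, a homeobox factor of sensory neurons, 1.49, 0.674 and 1.99 FPKM. These values rank genes over 9 points that share 3 genotypes, and nothing on a shared function or control is taken from them.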

How the data were processed

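Total RNA of 9 whole embryos was sequenced as paired-end reads. The authors trimmed the reads, aligned them with STAR to mm10, filtered on mapping quality, quantified genes in SeqMonk and deposited linear FPKM values for each gene in each embryo. The annotation release, strandedness and the handling of read pairs are not given in the sources used here. The table held 34245 rows, 1 without a gene name, which was left out. It held no zeros, since a gene without reads carries a value worth 0.9 reads. Reads per gene were worked back from these steps and used only for depth: 86.4% of 27063 genes with up to 1000 reads gave whole reads in all libraries within 0.02. Genes with at least 0.1 FPKM in 3 of 9 embryos (19397) entered limma (version 3.58.1, R 4.3.3) as log2(FPKM + 0.1), with a variance trend and all 9 embryos in 1 model of 3 genotypes. A fold change on this scale understates that of low genes. Script checks were run on simulated data. Positions and exon lengths are from GENCODE M21 (34125 genes matched), sequences from RefSeq GRCm38.p6.

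The members and gene lists were chosen with earlier results of these data known. All 6 members are named, and of each list the genes called at 2-fold (at most 4 by size) or, with none called, the most abundant. The alternatives were pseudocounts of 0.01 and 1 FPKM, no filter or 1 FPKM, other scalings, fewer groups, no trend, a replicate block, an unadjusted p and each embryo left out. Bisulfite and lymphoma samples were not used here. Other software was matplotlib 3.10.9, numpy 2.4.6, python 3.11.15 and pandas 2.3.3.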

Additional observations from a re-analysis of the deposited data

How the results depend on the processing

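The members were chosen on these embryos, so their values over the alternatives are a description and no sign of stability. In the embryos labelled Dnmt3b-/-, Dlk1 had log2 fold changes of −1.10 to −1.37 against the other genotypes. The count of members called moved from 1 to 3 with a pseudocount of 0.01 FPKM in both comparisons, through Rtl1 and Dio3, which lie at the 2-fold limit. With 1 embryo left out it ran from 1 to 3 in both, the highest without labelled null embryo 1. Other transcripts of the cluster called (3 of the 6 tested only through the other genotypes) moved from 0 to 4 (against Dnmt3b+/+) and 3 (against Dnmt3b CI/CI) with that pseudocount, and from 0 to 1 with an embryo left out. Begain, the 1 flanking gene called, was lost in both comparisons (0 called) with a pseudocount of 1 FPKM, without a filter, with quantile normalization and with the replicate block, and against Dnmt3b+/+ also with only the 2 groups compared. With 1 embryo left out the count was 0 to 1. Among the gene lists, the Notch count of 1 (Dlk2) became 0 against both genotypes with a pseudocount of 1 FPKM and with the replicate block, and against Dnmt3b+/+ also without a filter, with quantile normalization and with only the 2 groups compared. Crym was lost against Dnmt3b+/+ in 3 of these (1 FPKM, no filter, 2 groups) and with the block, Thra with 2 groups, Ttr against Dnmt3b CI/CI without a filter, with 2 groups and with no trend, and Myod1 without a filter, with 2 groups and with the block. Col11a1 and Pomc against Dnmt3b+/+ and Chrna1 and Rhox6 against both were lost with 1 FPKM, and Hba-x against Dnmt3b+/+ with 2 groups. The cause of these moves was not tested, except that the pseudocount by construction shrinks changes of low genes: with 1 FPKM, Rtl1 gave −0.63 and Dio3 −0.45 against Dnmt3b+/+. Quantile normalization moved the median of all genes by 0.10 and 0.11 in the comparisons of the labelled nulls, and Dlk1 then gave −1.31 and −1.37. In Dnmt3b CI/CI against Dnmt3b+/+, Dlk1, Meg3, Rian and Mirg kept their sign under each alternative and Rtl1 and Dio3, both near 0, did not. Without labelled null embryo 1, Meg3 gave −0.62 against Dnmt3b+/+.

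Embryo numbers of the labels were not taken to pair the embryos: deviations of same-numbered embryos correlated at −0.34 to 0.0039 between labelled nulls and Dnmt3b+/+, −0.284 to 0.0139 between labelled nulls and Dnmt3b CI/CI and −0.0648 to 0.215 between Dnmt3b CI/CI and Dnmt3b+/+. A fit with the replicate block called 1 member and 0 other transcripts in both comparisons of the labelled nulls. Precision is limited by 3 embryos per genotype and, for Dio3 and the low transcripts, by read numbers.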
